A study of Mus musculus with 12 samples.

Results

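Mouse induced pluripotent stem cells that had gone through an optimized cardiac protocol for 4 days were compared with cells of the same origin left to differentiate spontaneously for the same time. The comparison rests on 6 of the 12 arrays of the series, the 3 whose labels name the cardiac protocol at day 4 and the 3 whose labels name spontaneous differentiation at day 4, over 19938 genes, each represented by the single-gene probe set with the highest mean signal over all arrays. All 6 samples were day 4 cultures derived from the iPSCs. The remaining 6 arrays are 3 of undifferentiated iPSCs at day 0, used below as the starting level, and 3 of a day 4 population enriched by flow sorting for FLK1 and PDGFRα. The sorted arrays are not compared here and entered the estimate of the spread, the choice of probe sets and the median of all values. The labels used here name no strain, line, medium or added factor for either culture. Both cultures were measured unsorted, so a gene's signal is an average over all cell types present, and fewer cells of a type and less RNA per cell cannot be told apart.

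In the mouse embryo, cardiac cells come from mesoderm that leaves the primitive streak under WNT, Nodal and BMP signals, switches on Mixl1, Eomes and Mesp1, and then carries the receptors FLK1 (the product of Kdr) and PDGFRα. Genes of the contractile apparatus follow later. Cultures of pluripotent cells also form visceral endoderm, an extraembryonic epithelium that secretes transport proteins such as transthyretin, apolipoproteins and alpha-fetoprotein, and the share of each lineage depends on the signals the culture receives.

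Values are log2 signals, so a difference of 1 is a 2-fold difference in signal. They are given for replicates 1, 2 and 3 in turn, a difference is the cardiac mean minus the spontaneous mean, and levels of different genes are not compared. Since the labels do not say whether the 3 replicates of a group were cultured apart, the p-values cover only how far these samples scatter, and that scatter may be technical. The cardiac arrays were less alike than the spontaneous ones. Pairwise correlations over genes ran from 0.973 to 0.9876 within the cardiac group, from 0.9922 to 0.9966 within the spontaneous group and from 0.9735 to 0.9945 between the groups. The median SD over genes was 0.181 in the cardiac and 0.0957 in the spontaneous group, and 76.9% of genes had the larger SD in the cardiac group. Cardiac replicate 1 stood apart, with 361 genes at least 1 above and 263 genes at least 1 below the spontaneous mean, against 29 and 5 genes in cardiac replicate 2 and 53 and 54 in cardiac replicate 3. Of all genes, 29.6%, 34.6% and 29.1% lay above every spontaneous array in cardiac replicates 1, 2 and 3, and 36.6%, 34.7% and 31.3% lay below, which is the background for counts per array. Where a result moved by more than 1.5 times without cardiac replicate 1, the value without it is given for many of the main genes and lists. It is not given for every gene named, so a difference printed alone may depend on that array. Leaving out cardiac replicate 2 moved several list medians the other way, and those values are given with the order of the arrays.

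No gene passed the test between the cultures. Limma, with all 12 arrays in 1 model and Benjamini-Hochberg adjustment over 19938 genes, called 0 genes higher (0%) and 0 genes lower (0%) in cardiac cells at an adjusted p under 0.05 with a log2 difference of at least 1. The smallest adjusted p was 0.762, for Afp, and every other gene named here had an adjusted p of 0.999, so the differences that follow are measured values that did not pass. At an unadjusted p under 0.05, 417 genes were higher (2.09%) and 326 lower (1.64%). Estimated array weights, the setting with the most calls, gave 3 genes higher and 0 lower, and the fits without spontaneous replicate 1 and without cardiac replicate 1 gave 1 and 0 calls. All 3 cardiac arrays lay above all 3 spontaneous arrays for 1042 genes (5.23%) and below them for 751 genes (3.77%), and such genes are called separated below. Without cardiac replicate 1, where fewer arrays must be separated, these counts were 1562 and 1361. Of the separated genes, 32 were higher by at least 1 and 0 were lower by at least 1. Over all genes, separated or not, 50 were higher and 39 lower by at least 1, so large differences were not confined to 1 direction. The median difference over all genes was -0.02 and the median half-width of the 95% interval was 0.313. That half-width is for a single gene before adjustment. Much larger differences also failed the adjusted test, so it is not the limit of detection.

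**Figure D1:**
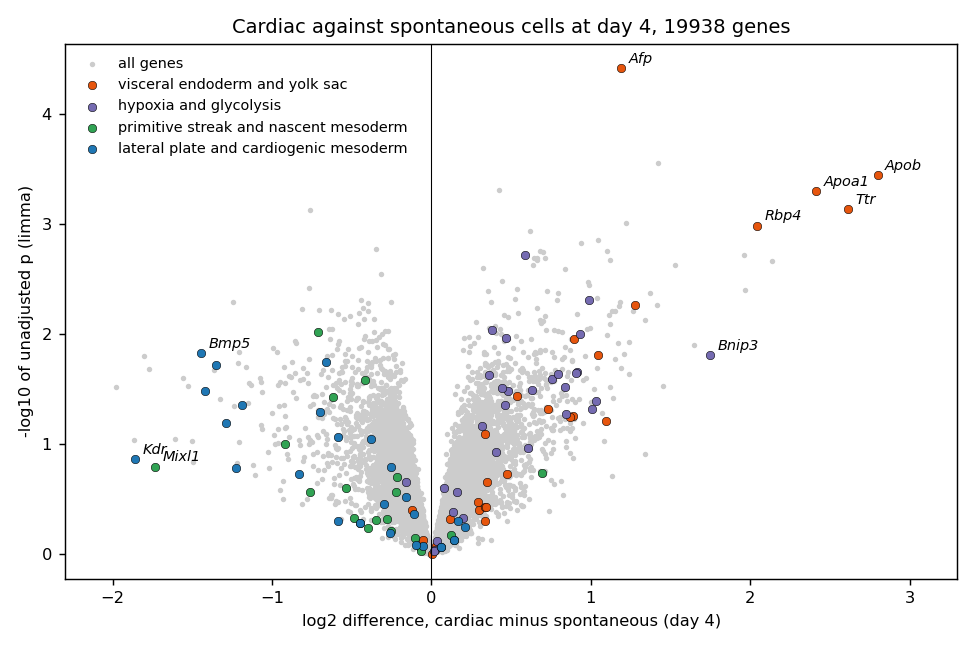
Log2 difference of cardiac minus spontaneous cells at day 4 (x axis) against -log10 of the unadjusted limma p (y axis), 1 point per gene, with 4 gene lists in colour. Afp has the smallest p, Apob the largest difference of the visceral endoderm list at 2.80, and Kdr and Mixl1 lie far to the left at -1.86 and -1.73 with large p-values and widely spread cardiac arrays.

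The largest positive differences belonged to secreted products of visceral endoderm. Apob, which encodes the structural protein of lipoprotein particles, had signals of 7.68, 6.01 and 5.69 in spontaneous and 10.61, 8.43 and 8.75 in cardiac cells, a difference of 2.80 (SE 0.59, 95% interval 1.54 to 4.07) or 6.97-fold. Ttr, the thyroxine and retinol-binding protein carrier transthyretin, stood at 8.45, 7.57 and 7.08 against 11.34, 9.56 and 10.04, a difference of 2.61 (SE 0.59). Apoa1, the main protein of high-density lipoprotein, stood at 7.27, 6.33 and 6.21 against 10.21, 7.997 and 8.85, a difference of 2.41 (SE 0.53). For each of these genes the lowest cardiac array exceeded the highest spontaneous array, and cardiac replicate 1 was the highest of all. Rbp4, the plasma carrier of retinol, was 6.02, 5.68 and 5.68 against 9.37, 6.60 and 7.56, a difference of 2.05 (SE 0.49). Afp, the fetal counterpart of albumin, was 5.64, 5.51 and 5.36 against 7.24, 6.26 and 6.58, a difference of 1.19 (SE 0.20, 95% interval 0.77 to 1.61, adjusted p 0.762 in limma). Spontaneous cells stood near the day 0 level for Rbp4 (6.26, 5.84 and 5.76 at day 0) and Afp (5.41, 5.32 and 5.59 at day 0), whereas their Ttr was above all day 0 arrays (5.50, 5.97 and 5.89). Array weights called Afp (1.29, adjusted p 0.0198) and Apoa1 (2.78, adjusted p 0.0292).

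Of the 27 measured genes of the visceral endoderm and yolk sac list, 0 were called. In 7 all cardiac arrays lay above all spontaneous arrays (25.9%, against 5.23% of all genes), and in 0 below (against 3.77%). At an unadjusted p under 0.05 in limma, 10 were higher and 0 lower, beside 2.09% and 1.64% of all genes. The median difference was 0.47 against -0.02 over all genes. The other separated members were Apom (1.28), an apolipoprotein that carries lipid mediators, and Spink1 (0.89), a trypsin inhibitor. Hnf4a, a nuclear receptor that controls many genes of this epithelium, had a difference of 1.04, with spontaneous signals of 7.51, 7.01 and 6.88 and cardiac signals of 9.34, 7.41 and 7.76, which overlapped. The endocytic receptor gene Cubn (1.10) and the adaptor gene Dab2 (0.87) also overlapped, with spontaneous replicate 1 high in both, at 10.81 and 11.05. In the spontaneous group too, replicate 1 had the highest signal of all 7 separated members. Alb (0.00), Fga (-0.05) and Fgg (0.03), the genes of albumin and of fibrinogen chains, were dim and differed little, and the basement membrane genes Lama1 (0.34), Lamb1 (0.29) and Col4a1 (0.34) overlapped. The list's median distance from the spontaneous mean was 1.19 in cardiac replicate 1, -0.07 in replicate 2 and 0.51 in replicate 3, and 25, 8 and 17 of its 27 members exceeded every spontaneous array in them, beside 29.6%, 34.6% and 29.1% of all genes. Without cardiac replicate 1 the median difference was 0.12 and the differences were 2.13 for Apob, 2.10 for Ttr, 1.82 for Apoa1, 1.28 for Rbp4, 0.92 for Afp, 0.62 for Apom, 0.54 for Spink1, 0.46 for Hnf4a, 0.56 for Cubn and 0.46 for Dab2.

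**Figure D2:**
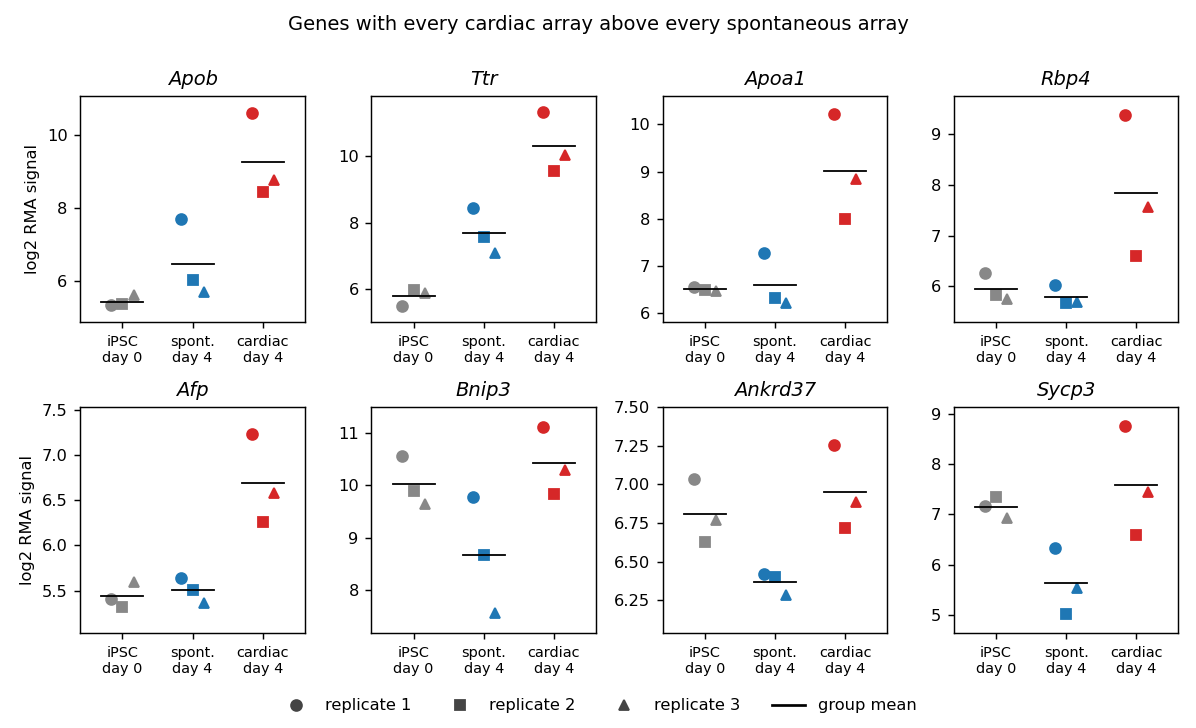
Log2 RMA signal (y axis, separate scale per gene) of 8 genes in iPSCs at day 0 (grey), spontaneous cells (blue) and cardiac cells (red) at day 4, with 1 symbol per replicate and a bar at the group mean. In every panel the 3 cardiac symbols lie above the 3 spontaneous symbols, as for Apob with at least 8.43 against at most 7.68.

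The start-site windows of 4 of these genes are printed because their signals separated the cultures. Each runs from 250 bases before to 50 bases after the RefSeq start in GRCm38.p6, 300 bases in all, with motif matches in capitals. The letters searched on both strands were TATAAA (13.6% of 32851 promoter windows hold it), AGATAA for GATA factors (11.2%), CACGTG for an E-box (7.15%), CTTTGTT for LEF/TCF factors (5.85%), and GTTAAT for HNF1 (7.1%) and TGTTTAC for forkhead factors (3.65%), the last pair being added after the values were seen. The Afp window (chr5:90490464-90490763, plus strand) holds TATAAA with its first base 7 bases before the start and GTTAAT 105 bases before it. The Apob window (chr12:7977427-7977726, plus strand) holds TATAAA 60 bases before the start. For Rbp4, which has a further listed start, the window at chr19:38124762-38125061 on the minus strand holds TATAAA 28 bases before the start, and the Apoa1 window (chr9:46228380-46228679, plus strand) holds none of the letters searched. The window of the further Rbp4 start, not printed, holds TGTTTAC on the opposite strand, 241 bases before that start. A match describes the letters in these windows and is not evidence that a factor bound there.
Afp: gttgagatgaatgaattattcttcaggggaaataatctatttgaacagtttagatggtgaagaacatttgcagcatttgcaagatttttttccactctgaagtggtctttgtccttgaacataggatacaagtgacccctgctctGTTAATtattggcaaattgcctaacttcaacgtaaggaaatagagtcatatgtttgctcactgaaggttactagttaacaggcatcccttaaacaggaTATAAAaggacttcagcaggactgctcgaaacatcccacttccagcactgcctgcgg
Apob: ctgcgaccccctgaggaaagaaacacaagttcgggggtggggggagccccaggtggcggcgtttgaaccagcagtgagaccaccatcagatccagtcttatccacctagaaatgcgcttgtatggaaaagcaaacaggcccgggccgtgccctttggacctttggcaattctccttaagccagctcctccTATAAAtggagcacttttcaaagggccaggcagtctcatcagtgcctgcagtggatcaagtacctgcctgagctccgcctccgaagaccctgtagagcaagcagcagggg
Rbp4: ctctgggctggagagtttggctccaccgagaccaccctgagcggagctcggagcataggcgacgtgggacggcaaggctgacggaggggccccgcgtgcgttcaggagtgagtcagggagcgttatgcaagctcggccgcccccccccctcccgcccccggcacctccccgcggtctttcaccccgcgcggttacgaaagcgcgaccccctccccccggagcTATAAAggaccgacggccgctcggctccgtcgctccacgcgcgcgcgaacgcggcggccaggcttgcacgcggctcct
Apoa1: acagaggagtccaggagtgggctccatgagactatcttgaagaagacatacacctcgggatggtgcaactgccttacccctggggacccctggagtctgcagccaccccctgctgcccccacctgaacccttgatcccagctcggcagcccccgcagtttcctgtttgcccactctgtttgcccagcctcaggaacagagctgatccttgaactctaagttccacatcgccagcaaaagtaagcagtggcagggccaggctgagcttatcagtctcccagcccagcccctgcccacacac

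Genes that respond to low oxygen formed another group of positive differences. Of 30 measured genes of the hypoxia and glycolysis list, 0 were called. In 11 all cardiac arrays lay above all spontaneous arrays (36.7%, against 5.23% of all genes), and in 0 below (against 3.77%). At an unadjusted p under 0.05 in limma, 18 were higher and 0 lower, beside 2.09% and 1.64% of all genes. The median difference was 0.48. Bnip3, a mitochondrial protein that promotes mitophagy, had signals of 9.77, 8.67 and 7.56 in spontaneous and 11.12, 9.84 and 10.30 in cardiac cells, a difference of 1.75 (SE 0.63, 95% interval 0.39 to 3.11). Egln3, an oxygen-dependent hydroxylase that marks HIF for degradation, stood at 8.51, 7.92 and 7.61 against 9.38, 8.55 and 9.22, a difference of 1.03 (SE 0.45). Its relative Egln1 stood at 9.27, 8.61 and 8.005 against 9.56, 9.33 and 9.51, a difference of 0.84 (SE 0.34). The groups did not overlap for these genes, but the margins were narrow, since spontaneous replicate 1 came close to the lowest cardiac array each time. Ankrd37 differed by 0.58 (SE 0.15), the growth factor gene Vegfa by 0.79 (SE 0.31), and Pfkfb3, an activator of glycolytic flux, by 0.93 (SE 0.31), all separated. Hexokinase 2 (Hk2, 0.38), the glucose transporter gene Slc2a1 (0.45), Pfkp (0.61), Mxi1 (0.36) and Higd1a (0.46) completed the separated members. The bright glycolytic genes Ldha (0.02), Pkm (0.04) and Hk1 (0.08) had differences near 0, as had Car9 (0.02), which was dim on all 6 arrays.

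Cardiac replicates 1, 2 and 3 lay 0.78, 0.22 and 0.45 above the spontaneous mean in the median hypoxia gene, and the 3 spontaneous arrays at 0.24, -0.04 and -0.17. Without cardiac replicate 1 the list's median difference was 0.33, and the differences were 1.40 for Bnip3, 0.49 for Vegfa and 0.31 for Pfkp. The day 0 arrays stood at 0.56, 0.17 and 0.05 on the same scale, and their Bnip3 signals of 10.56, 9.89 and 9.64 overlapped the cardiac range. A repeated quantile normalization and cyclic loess left 6 of 30 members separated, and centring on array medians left 16, with medians of 0.48, 0.51 and 0.48. The sources used here do not give the oxygen at which either culture was kept, and its part in the result was not tested.

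Among other genes with large differences and separated groups, Pga5, which encodes a pepsinogen, stood at 8.93, 7.55 and 7.45 against 11.23, 9.14 and 9.97, a difference of 2.14 (SE 0.56). Bhlhe41 (1.97, SE 0.56) and Bhlhe40 (1.42, SE 0.43), a pair of related transcriptional repressors of the circadian and hypoxia responses, were separated too. Bhlhe41 was 6.41, 5.25 and 5.75 in spontaneous and 9.02, 6.69 and 7.61 in cardiac cells. The serine protease gene Prss12 (1.53), the carbonic anhydrase gene Car4 (1.45), and Pilra (1.42), an inhibitory immune receptor, followed. Otx2, a homeobox factor of epiblast, anterior visceral endoderm and forebrain, stood at 9.80, 8.60 and 8.55 against 10.41, 9.94 and 10.13, a difference of 1.18 (SE 0.36, 95% interval 0.41 to 1.95) that was 1.05 without cardiac replicate 1. Cardiac replicate 1 was again the highest array for each of these 7 genes, and without it Prss12 differed by 0.995 and Bhlhe40 by 0.86. Outside the rule for named genes, Slc34a2, a phosphate transporter, is mentioned because array weights called it (1.52, adjusted p 0.0292), with a difference of 1.22 under equal weights.

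Sycp3 and Ddx4 of the germ cell list were higher in the cardiac arrays without passing the test, while 15 of its 17 members overlapped. Sycp3, a component of the synaptonemal complex, had signals of 6.33, 5.02 and 5.53 in spontaneous and 8.75, 6.58 and 7.44 in cardiac cells, a difference of 1.96 (SE 0.51, 95% interval 0.87 to 3.06), and 1.38 without cardiac replicate 1. Ddx4, the germ-cell helicase known as Vasa, stood at 6.16, 6.26 and 6.54 against 7.86, 6.71 and 6.55 (difference 0.72), a narrow separation. Those were 2 of 17 members of the germ cell list (11.8%, against 5.23% of all genes), and the list's median difference was 0.23, or 0.06 without cardiac replicate 1. Ddx4 differed by 0.31 without that array. Day 0 signals of Sycp3 (7.16, 7.34 and 6.93) and Ddx4 (7.53, 7.17 and 6.80) lay within the cardiac range. The meiotic genes Stag3 (0.94), Dmc1 (0.68) and Zcwpw1 (1.10), from outside the list and picked after their values were seen, were separated too. Picked in that way, they cannot show how meiotic genes behave as a set. Within the list, the meiotic genes Sycp1 (0.10) and Stra8 (-0.01) overlapped and differed little, and Tfap2c was the lowest member at -0.33. Dazl (0.62), Mael (0.87) and Piwil2 (0.43), which are germ-cell genes active in the day 0 cells, overlapped, cardiac replicate 1 was their highest day 4 array, and without it they differed by 0.35, 0.22 and 0.11.

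Genes of the primitive streak and early mesoderm did not separate the cultures, and their signals spread across the cardiac arrays. Mixl1, a homeobox gene of the streak, had spontaneous signals of 10.84, 11.13 and 11.33 and cardiac signals of 6.22, 11.42 and 10.48. Cardiac replicate 1 was thus close to the day 0 arrays (5.97, 5.86 and 6.10), cardiac replicate 2 was the highest of the 6, and the difference of -1.73 had a 95% interval of -4.24 to 0.78. Eomes, a T-box factor needed for mesoderm and endoderm, stood at 10.88, 10.74 and 10.60 against 8.48, 11.13 and 10.33, a difference of -0.76 (SE 0.66). Mesp1, the earliest marker of cardiac mesoderm, stood at 7.73, 7.43 and 7.03 against 5.53, 8.36 and 6.96, a difference of -0.45 (95% interval -1.89 to 1.00). For all these genes cardiac replicate 1 was below and cardiac replicate 2 above every spontaneous array. Without replicate 1 the differences were -0.15 for Mixl1, -0.01 for Eomes and 0.26 for Mesp1.

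Of the 20 measured streak genes, 0 had the cardiac arrays above all spontaneous arrays (0%, against 5.23% of all genes). Below them was 1 (5%, against 3.77%), namely Msgn1 (-0.41), a factor of presomitic mesoderm. These counts are near the shares of all genes, and the median difference was -0.37. In cardiac replicate 1, 18 of the 20 members were below every spontaneous array and 0 above, in replicate 2 it was 3 below and 12 above, and in replicate 3 it was 8 below and 0 above. The shares of all genes were 36.6%, 34.7% and 31.3% below and 29.6%, 34.6% and 29.1% above, so the 8 of 20 below in replicate 3 are near the share of all genes. The median distances from the spontaneous mean were -1.19, 0.37 and -0.11, and without replicate 1 the list's median difference was 0.08. The list includes ligands (Wnt3, Fgf8, Nodal), the organizer genes Gsc and Lhx1 and the Nodal inhibitor gene Cer1, whose difference was the highest of the list at 0.69 (95% interval -0.37 to 1.76). Wnt3, needed to start the streak, stood at 8.25, 8.51 and 8.58 against 6.19, 8.69 and 7.71, a difference of -0.92, or -0.25 without cardiac replicate 1. Cdx2 (-0.71) and the Nodal co-factor gene Foxh1 (-0.62) had unadjusted p-values under 0.05 and overlapped. Brachyury (T) has no single-gene probe set in the annotation used and was not analysed here.

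**Figure D3:**
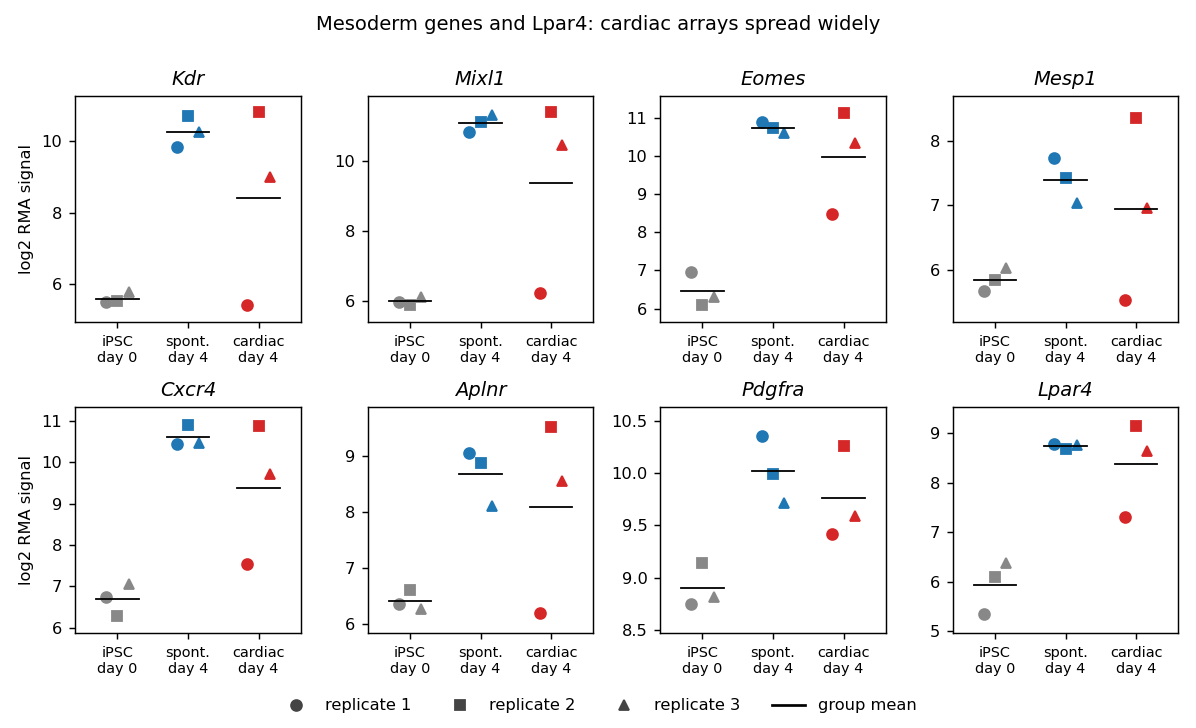
Log2 RMA signal (y axis, separate scale per gene) of 7 mesoderm genes and Lpar4 in iPSCs at day 0 (grey), spontaneous cells (blue) and cardiac cells (red) at day 4, with 1 symbol per replicate and a bar at the group mean. Cardiac replicate 1 lies near the day 0 arrays for Kdr (5.42) and Mixl1 (6.22), while the spontaneous arrays stay close together.

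The same spread ran through the receptors and signals of lateral and cardiogenic mesoderm. Kdr stood at 9.83, 10.71 and 10.27 in spontaneous and 5.42, 10.81 and 9.01 in cardiac cells, a difference of -1.86 (SE 1.17, 95% interval -4.40 to 0.68), which was -0.36 without cardiac replicate 1. The day 0 arrays gave 5.50, 5.54 and 5.78 for Kdr, so the signal of cardiac replicate 1 was at the level of undifferentiated cells. Pdgfra, the other receptor by which the sorted population was defined, stood at 10.35, 9.996 and 9.71 against 9.42, 10.26 and 9.60. The difference was -0.26 (SE 0.55), or -0.09 without cardiac replicate 1. Both groups overlapped for both receptors. The chemokine receptor gene Cxcr4 stood at 10.45, 10.91 and 10.47 against 7.55, 10.87 and 9.72, and the apelin receptor gene Aplnr at 9.05, 8.88 and 8.10 against 6.20, 9.51 and 8.55. Their differences of -1.23 and -0.59 were -0.31 and 0.35 without cardiac replicate 1.

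Later lateral plate genes were low in cardiac replicate 3 as well as in replicate 1. Foxf1, a forkhead factor of splanchnic mesoderm, stood at 8.62, 10.44 and 9.74 against 6.91, 9.72 and 7.92, a difference of -1.42 (SE 0.60). Tbx20, a T-box factor of cardiac progenitors, stood at 7.62, 9.43 and 9.01 against 6.83, 8.68 and 6.98, a difference of -1.19 (SE 0.53) and of -0.85 without cardiac replicate 1. The BMP ligand genes Bmp4 (-1.35, SE 0.50) and Bmp5 (-1.44, SE 0.51) had the same order of arrays, with cardiac replicate 2 at 9.44 and 8.08. Without cardiac replicate 1 the differences were -0.78 for Foxf1, -0.83 for Bmp4 and -0.85 for Bmp5. Spontaneous replicate 1 was the lowest of its group for all 4 genes, and each overlapped. Of 26 genes of this list, 0 were separated in either direction, against 5.23% above and 3.77% below of all genes. At an unadjusted p under 0.05 in limma, 5 were lower and 0 higher, beside 1.64% and 2.09% of all genes. The median difference was -0.41, or -0.14 without cardiac replicate 1. Members below all spontaneous arrays numbered 23, 1 and 15 of 26 in cardiac replicates 1, 2 and 3, beside 36.6%, 34.7% and 31.3% of all genes.

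The median sarcomere and excitation gene lay -0.07, -0.23 and 0.01 from the spontaneous mean in cardiac cells. At day 0 it lay 0.08, 0.10 and 0.06 from that mean. Single genes differed more. Nkx2-5, the homeobox gene of the cardiac crescent, stood at 7.49, 7.48 and 7.55 in spontaneous, 7.51, 7.10 and 7.42 in cardiac and 7.63, 7.57 and 7.43 in day 0 cells, so no array of either culture exceeded the day 0 range. Tbx5 (-0.04), Mef2c (-0.03) and Myocd (-0.12), later regulators of the myocardium, had differences near 0 and signals below the median of all values (6.18) on all 6 arrays. Gata4 stood at 9.87, 9.79 and 9.63 against 9.88, 9.79 and 9.47 (difference -0.05, 95% interval -0.61 to 0.50), and Gata6 differed by 0.06 (95% interval -0.61 to 0.72). Both zinc-finger factors are shared by cardiac mesoderm and endoderm and were above every day 0 array in both cultures, except that Gata6 of 1 spontaneous array, at 9.30, lay under the highest day 0 value of 9.32. Isl1, a factor of the second heart field, stood at 6.87, 7.05 and 7.12 against 5.75, 6.92 and 6.27, a difference of -0.70 (SE 0.32), or -0.42 without cardiac replicate 1. Of 28 cardiac transcription factor genes 0 were separated, against 5.23% above and 3.77% below of all genes, with a median difference of -0.11. At an unadjusted p under 0.05 in limma, 3 of them were lower and 0 higher, beside 1.64% and 2.09% of all genes. Of 29 sarcomere and excitation genes 0 were separated above (against 5.23%) and 2 below (6.9%, against 3.77% of all genes), Tnni1 (-0.19) and Tcap (-0.19). Their median was -0.11 over the list, and 3 members were lower and 0 higher at an unadjusted p under 0.05 in limma. The cardiac troponin C gene Tnnc1 (-0.85) was 6.51, 7.70 and 7.60 in spontaneous and 6.30, 6.30 and 6.65 in cardiac cells, against 6.30, 6.19 and 6.20 at day 0. Actc1 (-0.59), Tpm1 (-0.54, or -0.19 without cardiac replicate 1) and Myl4 (-0.48) were also lower and overlapped. The highest difference of the list was 0.37, for Des, or 0.13 without cardiac replicate 1.

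Mesenchymal genes gave the most negative list median, -0.54 over 26 genes, with 0 members called by limma. At an unadjusted p under 0.05 in limma, 4 were lower and 0 higher, beside 1.64% and 2.09% of all genes. Separated below were 4 members (15.4%, against 3.77% of all genes), and 0 were separated above (against 5.23%). The separated members were Snai2 (-0.51), Twist2 (-0.52), Prrx1 (-0.23) and S100a4 (-0.21), with no day 4 signal over 7.13. After centring, repeated quantile normalization or cyclic loess 1 of the 26 was separated. The brighter members overlapped. Cdh11, a mesenchymal cadherin, stood at 10.08, 11.11 and 10.93 against 6.39, 10.67 and 9.46, a difference of -1.87 (95% interval -4.07 to 0.34). Vim, the intermediate filament gene vimentin, stood at 10.91, 11.94 and 11.97 against 9.49, 11.51 and 10.57, a difference of -1.08 (SE 0.43). The list lay -1.24, -0.01 and -0.52 from the spontaneous mean in cardiac replicates 1, 2 and 3, and without replicate 1 its median difference was -0.19 and the differences of Cdh11 and Vim were -0.64 and -0.56. On the epithelial side, 3 of 29 genes were separated above (10.3%, against 5.23% of all genes), namely the trafficking GTPase gene Rab25 (1.04), the P-cadherin gene Cdh3 (0.96) and Lad1 (0.32). The list median was 0.20, or 0.09 without cardiac replicate 1, and Cdh3 and Lad1 differed by 0.59 and 0.14 without that array. Other members were lower and overlapped, such as Krt8 (-0.66) and Dsp (-0.44). Repeated quantile normalization and cyclic loess each gave 2 above and 1 below.

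Among separated genes whose higher group had a mean over the median of all values, the 12 largest negative differences ran from -0.76 to -0.44. A gene that is bright in spontaneous cells alone can meet this limit, and dimmer genes such as Snai2 are left out by it. Adcy2, an adenylyl cyclase, led with spontaneous signals of 6.32, 6.62 and 6.58 and cardiac signals of 5.45, 6.11 and 5.68, a difference of -0.76 (SE 0.17, 95% interval -1.14 to -0.39), or -0.61 without cardiac replicate 1. Ahnak (-0.68), a large scaffold protein, the small heat-shock protein gene Cryab (-0.63) and the neurofilament gene Nefl (-0.60) followed with SEs of 0.42, 0.57 and 0.58, and Nefl differed by -0.29 without cardiac replicate 1. Idh1, the cytosolic isocitrate dehydrogenase, closed the 12 at 10.24, 10.60 and 10.58 against 10.05, 10.17 and 9.89, a difference of -0.44 (SE 0.13). Without spontaneous replicate 1 the test called 1 gene lower, Asb12 (-1.56, adjusted p 0.0183 in limma). Its spontaneous signals were 4.42, 6.12 and 6.13 and its cardiac signals 4.28, 4.87 and 4.53, so the array left out was the one that overlapped the cardiac group.

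Of 38 WNT pathway genes, 3 were separated above (7.89%) and 1 below (2.63%), near the 5.23% and 3.77% of all genes, and the median was -0.21, or -0.07 without cardiac replicate 1. The genes above were the secreted WNT inhibitors Sfrp1 (1.14, SE 0.49) and Sfrp5 (0.72) and the repressor Tcf7l1 (0.33), and the gene below was the receptor gene Fzd10 (-0.46). Without cardiac replicate 1 Sfrp5 differed by 0.37 and Fzd10 by -0.22. Sfrp1 stood at 7.83, 6.94 and 6.72 in spontaneous and 8.95, 8.05 and 7.90 in cardiac cells, against 7.98, 8.29 and 7.90 at day 0. Of 38 BMP and TGF-beta genes, 0 were separated above and 1 below (2.63%; Smad9, -0.21), against 5.23% and 3.77% of all genes. At an unadjusted p under 0.05, 8 of the 38 were lower, against 1.64% of all genes, and the median was -0.18, or -0.08 without cardiac replicate 1. The BMP target gene Id3 stood at 8.67, 9.54 and 9.30 against 6.92, 9.05 and 7.92, a difference of -1.21, or -0.69 without cardiac replicate 1. The Nodal, FGF and Notch lists had medians of 0.02, -0.03 and -0.01.

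Lpar4, the lysophosphatidic acid receptor named in the title of the series, did not differ beyond the spread. Its signals were 8.79, 8.69 and 8.77 in spontaneous and 7.31, 9.15 and 8.65 in cardiac cells, a difference of -0.38 (SE 0.42, 95% interval -1.29 to 0.53), and 0.15 without cardiac replicate 1. All 6 arrays exceeded the day 0 signals of 5.34, 6.10 and 6.37. Among 17 genes of lysophospholipid signalling, Liph, a lipase that makes lysophosphatidic acid, was separated above (5.43, 5.44 and 5.45 against 7.59, 5.65 and 6.71, difference 1.21, or 0.74 without cardiac replicate 1), and Lpar2 was separated below by a small difference (-0.14). These are 5.88% of the list above and 5.88% below, near the 5.23% and 3.77% of all genes.

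Pluripotency genes overlapped between the cultures, and their median was below the day 0 level in all 6 arrays. Pou5f1 stood at 10.64, 9.80 and 10.28 in spontaneous and 10.998, 10.60 and 10.75 in cardiac cells, a difference of 0.54 (SE 0.23), with overlap. Nanog differed by 0.28 (SE 0.27) and Sox2 by 0.57 (SE 0.61), which for Sox2 was 0.37 without cardiac replicate 1. Of 27 genes of this list 0 were separated in either direction, against 5.23% above and 3.77% below of all genes. The median difference was 0.11, or -0.03 without cardiac replicate 1 and 0.32 without cardiac replicate 2. The day 0 arrays lay 1.38, 1.49 and 1.38 above the spontaneous mean in the median gene, cardiac replicate 1 lay 0.64 above it, replicate 2 -0.19 and replicate 3 0.19. Of 17 genes of the formative and primed epiblast, 2 were separated above (11.8%, against 5.23% of all genes), Otx2 and the DNA methyltransferase gene Dnmt3a (0.58, or 0.25 without cardiac replicate 1). The list's median was 0.13, or 0.20 without cardiac replicate 1.

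The order of the arrays was the same in several lists, with cardiac replicate 1 farthest from the spontaneous mean for visceral endoderm, hypoxia, pluripotency, streak, cardiogenic and mesenchymal genes, replicate 3 between, and replicate 2 nearest to it or on the other side. The first principal component of the 6 arrays held 55% of the variance and placed cardiac replicate 1 at 42.34, cardiac replicate 3 at 11.93, the spontaneous arrays at -1.89, -17.18 and -15.44 and cardiac replicate 2 at -19.76. In 101 genes 1 cardiac array was farther from its neighbour than the other 2 were from each other by more than 1. It was replicate 1 that lay above in 46 of them and below in 35, replicate 2 above in 15 and below in 5, and replicate 3 in 0. Those with the largest such distance included Mixl1, Alox15 (9.71, 9.24 and 9.32 against 5.90, 9.49 and 9.27), a lipoxygenase gene, and Klhl6 (8.72, 8.97 and 9.06 against 4.88, 9.35 and 8.03), all low in replicate 1, and the mucin gene Muc13 (5.78, 5.21 and 5.19 against 8.94, 5.69 and 6.52), high in it. What set replicate 1 apart was not tested. By mean correlation with the other cardiac arrays, replicates 1, 2 and 3 stood at 0.9803, 0.9795 and 0.9868. Without cardiac replicate 2 the list medians were 0.82 for visceral endoderm, 0.59 for hypoxia, -0.69 for streak, -0.72 for cardiogenic and -0.88 for mesenchymal genes. Each had the same direction as with all arrays and was larger in size.

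**Figure D4:**
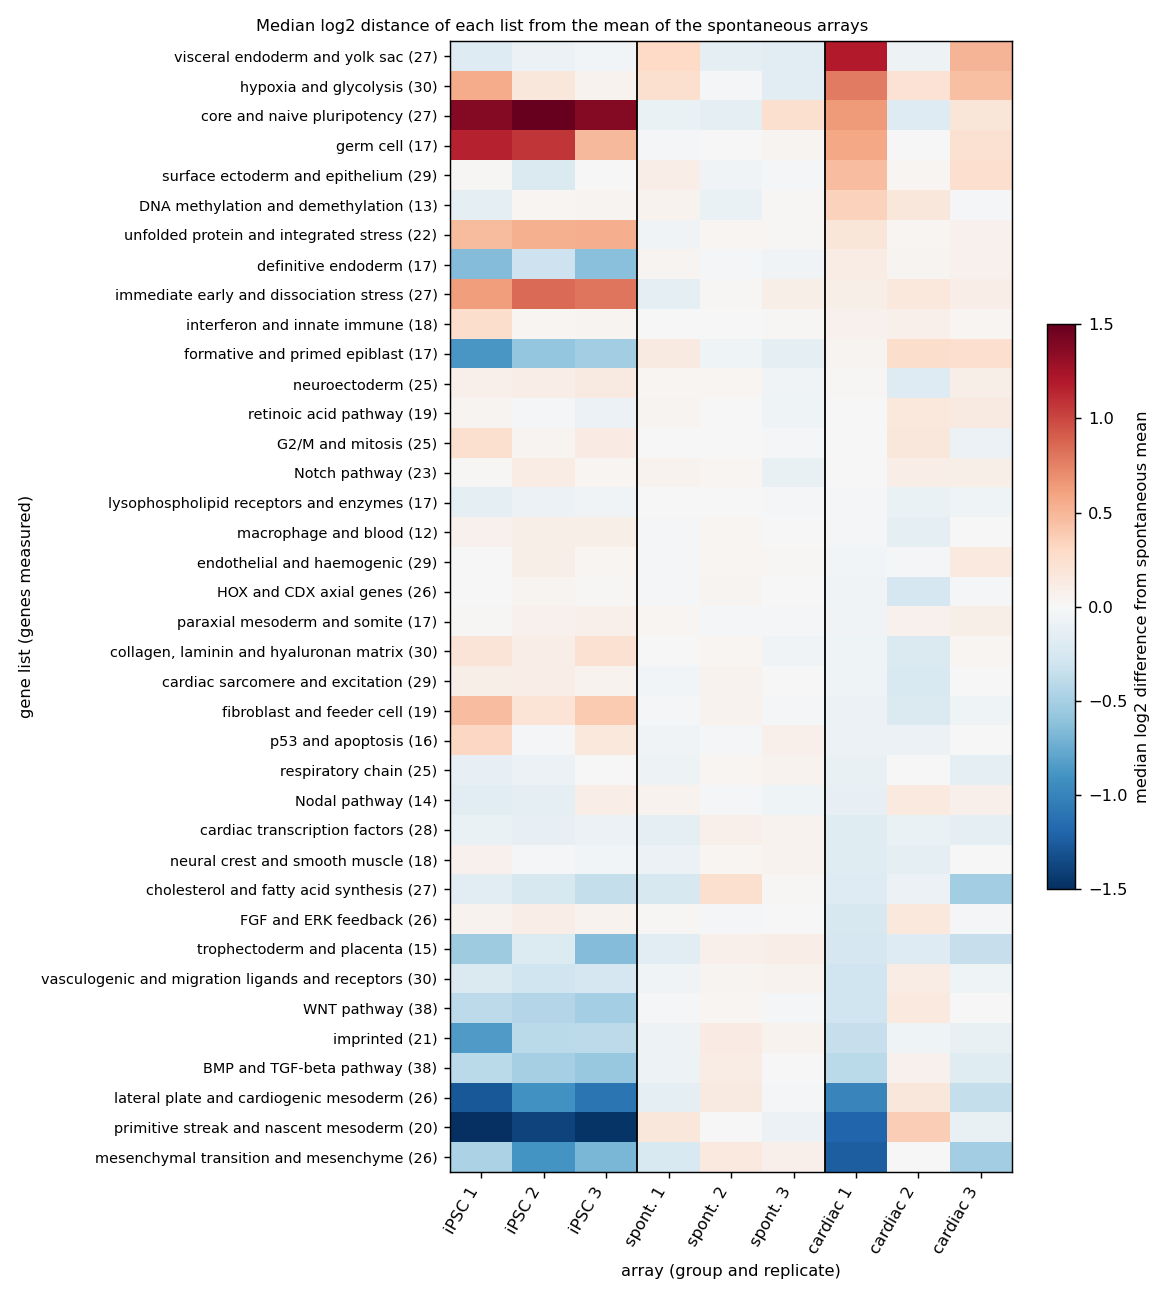
Median log2 distance of the genes of 38 lists (rows, with the number of genes measured) from the mean of the 3 spontaneous arrays, for each array of day 0 iPSCs, spontaneous and cardiac cells (columns), as colour from blue (lower) to red (higher), sorted by cardiac replicate 1. Cardiac replicate 1 runs from 1.19 for visceral endoderm to -1.24 for mesenchymal genes, and cardiac replicates 2 and 3 stay between -0.52 and 0.51.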

How the data were processed

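Total RNA was measured on 12 Affymetrix gene arrays, 3 in each of 4 groups named by the labels. Per the submitters' processing notes, the authors ran RMA in Affymetrix Expression Console (1.3.1), and the deposited numbers are its log2 output. RMA equalises the distributions of arrays, so a shift of most genes in 1 direction would be hidden. The log base was taken from the range of the values (1.87 to 13.87). The sources used here do not give the genome build of the probes. An abbreviation in the labels of the cardiac group is not interpreted.

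Of 35557 probe sets, 21789 carried 1 gene symbol in the platform annotation, 1621 carried several and 12147 were not listed. The brightest probe set stood for each of 999 genes with more than 1, which left 19938 genes. Probe sets without a single gene numbered 13768 and were tested separately with 0 calls, a smallest adjusted p of 1 and 462 at an unadjusted p under 0.05 (limma).

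A single limma fit (limma 3.58.1 under R 4.3.3) took all 12 arrays, with group means and an intensity trend, on 8 residual and 5.01 prior degrees of freedom. Tests were two-sided with Benjamini-Hochberg adjustment. SEs and 95% intervals are those of the moderated contrast. The number of arrays limits the precision. The fit was tested on simulated data.

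The comparison, the 38 gene lists and the rules were chosen with earlier results of these data known. Named were fixed cardiac and pluripotency genes, the 12 largest positive and negative differences among separated genes whose higher group had a mean over the median of all values, up to 4 members per list with the largest difference and 2 with the highest mean, and the 12 genes whose cardiac arrays lay farthest apart. Other named genes, among them Afp, Apom, Spink1, Hnf4a, Cubn, Egln1, Ankrd37, Vegfa, Pfkfb3, Aplnr, Slc34a2, Asb12 and further list members, were picked after their values were seen. No predicted loci, clones, small RNA or chemosensory receptor genes were named.

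Alternatives were a block for the replicate number, a fit of the 6 arrays alone, other prior variances, weights per array or group, leaving out dim genes, averaging a gene's probe sets, 3 other normalizations, other call rules and each of 6 arrays left out. A fit without the sorted arrays was added after seeing the data. Promoter windows are RefSeq's.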

Additional observations from a re-analysis of the deposited data

How the results depend on the processing

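Both counts of calls stayed at 0 under 18 of the 20 alternatives. Array weights called 3 genes higher (Afp, Apoa1 and Slc34a2), and the fit without spontaneous replicate 1 called 1 lower (Asb12). With each array left out in turn, the calls thus ran from 0 to 0 higher and from 0 to 1 lower. The numbers did not pair the samples: deviations of same-numbered spontaneous and cardiac arrays correlated at 0.22, 0.15 and -0.02, and with the replicate number as a block 0 genes were called higher and 0 lower, with 783 at an unadjusted p under 0.05 and a smallest adjusted p of 0.991 (limma). Separated genes ran from 1326 to 2894 above and from 1127 to 3893 below with 1 array left out, where fewer arrays must be separated by construction. With a filter on dim genes 803 were above and 261 below, a share above of 75.5% against 58.1% without it, on fewer genes. Repeated quantile normalization gave 1046 and 1068, a share of 49.5%, and the cause was not tested. Genes at an unadjusted p under 0.05, 743 in the reported fit, ran from 250 without spontaneous replicate 2 to 2887 with array weights, which gave cardiac replicate 2 a weight of 0.285. Without cardiac replicate 2 the smallest adjusted p was 0.0616, and without the sorted arrays it was 0.612 (limma). Some list medians changed sign with 1 array left out, among them streak genes (-0.37 to 0.08) and pluripotency genes (0.11 to -0.03) without cardiac replicate 1, and immediate early genes (0.07 to -0.01) without spontaneous replicate 1. Dim genes near the array's background limit the reading of small differences, and 3 arrays a group with unequal spread left a median 95% half-width of 0.313.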

Other observations

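Of 27 immediate early and dissociation genes, 7 were separated above (25.9%, against 5.23% of all genes) and 0 below, with a median difference of 0.07, and 2 of them were separated after repeated quantile normalization and 3 after cyclic loess. Ier3, a stress-induced survival gene, stood at 6.51, 6.38 and 6.41 in spontaneous and 8.71, 6.66 and 7.66 in cardiac cells, a difference of 1.24 (SE 0.42), or 0.73 without cardiac replicate 1. The growth arrest gene Gadd45b differed by 0.81 (SE 0.62), or 0.40 without cardiac replicate 1, and the matricellular gene Ccn2 by 0.55 (SE 0.49). Myc went the other way, the lowest of the list at -1.07 with overlap, or -0.30 without cardiac replicate 1. The day 0 arrays were above both cultures in Ccn2 (11.27, 11.37 and 10.68). Of 22 genes of the unfolded protein and integrated stress responses, 6 were separated above (27.3%, against 5.23% of all genes) and 1 below, with a median of 0.07, or 0.03 without cardiac replicate 1. After repeated quantile normalization and after cyclic loess 3 were separated above. Ddit3, a pro-apoptotic factor of that response, differed by 0.47 (SE 0.18), or 0.21 without cardiac replicate 1. Vldlr had the largest difference of this list in size, at -0.74, or -0.36 without cardiac replicate 1.

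Of 27 genes of cholesterol and fatty acid synthesis, 0 were separated above and 2 below (7.41%, against 3.77% of all genes), Mvk (-0.37), which encodes mevalonate kinase, and the desaturase gene Scd2 (-0.39), with a median of -0.24. Centring on array medians, repeated quantile normalization and cyclic loess gave 1, 4 and 3 below. Cardiac replicate 3 was farthest from the spontaneous mean in this list at -0.52, against -0.19 and -0.09 in replicates 1 and 2, so the order of arrays differed from that of the mesoderm lists. Hsd17b7, an enzyme of sterol synthesis, stood at 8.37, 9.26 and 9.20 against 7.67, 8.73 and 7.81, a difference of -0.87 (SE 0.32). Among 21 imprinted genes 3 were separated above (14.3%, against 5.23% of all genes) and 0 below (against 3.77%), while repeated quantile normalization and cyclic loess gave 2 above and 2 below. In this list the placental growth gene Phlda2 had the largest difference, with 10.73, 11.93 and 11.53 against 8.37, 11.05 and 9.36, or -1.80 (SE 0.65), and -1.19 without cardiac replicate 1. Of 13 genes of DNA methylation and demethylation 3 were separated above (23.1%, against 5.23% of all genes), Dnmt3a (0.58), the demethylating enzyme gene Tet1 (0.57) and Gadd45a (0.54). Repeated quantile normalization and cyclic loess gave 1 separated above, and without cardiac replicate 1 the differences were 0.25, 0.28 and 0.27. The mitosis list had a median of 0.02 over 25 genes and the respiratory chain list -0.09 over 25.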
